A study of Mus musculus with 4 samples.

Results

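The genes described here are 9 regulators that sit beside and below the core circadian clock, measured in mouse liver by RNA sequencing. They are the REV-ERB receptors Nr1d1 and Nr1d2, the receptor Rora, the PAR bZIP factors Dbp, Tef and Hlf, their antagonist Nfil3, the deubiquitinase Usp2 and the bHLH repressor Bhlhe41. They were taken by name, from a list drawn up with earlier results of these data known. All 9 were found once each among the 37315 genes counted and were tested among 14657. Liver of C57BL/6 mice aged 23 weeks gave 4 libraries, 2 of the wild type group and 2 of a group whose Foxo1 gene carries a synonymous mutation, which leaves the amino acid unchanged. No other treatment is stated for either group. Which codon was altered, the zygosity, the sex, the feeding state and the hour of collection were not stated in the labels used here. Nor do the labels say that the 2 libraries of a group came from separate animals, so the p-values measure no more than the spread between these samples, and that spread may be technical.

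The core loop of the clock is driven by Arntl (BMAL1) with Clock, which bind E-boxes and switch on their own repressors, the Per and Cry genes. A second, stabilising loop acts on the promoter of Arntl itself: ROR receptors activate and REV-ERB receptors repress through a shared DNA element, and REV-ERB binds haem and recruits the corepressor NCoR with the deacetylase HDAC3. The PAR bZIP factors carry the rhythm outward by activating genes through D-boxes, for which Nfil3 competes as a repressor. In liver, Dbp, Tef and Hlf are known for driving genes of drug and haem metabolism, and Nr1d1 for rhythmic control of lipid and bile acid genes. All of these transcripts can vary over the day in liver, Dbp and Nr1d1 by a wide margin.

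Promoter sequences of 4 of the genes are shown first, to set the pair of REV-ERB paralogs side by side and to give examples of the elements through which the loops act. RefSeq windows on GRCm38.p6, the build that mm10 denotes, matched all 9 genes, with 10 windows because Tef has 2 starts in the table. Each sequence below is the 250 bases before the start, read 5′ to 3′ on the gene's own strand, and capitals mark the matched letters. The strand and interval are chr11:98775378-98775627 on the minus strand for Nr1d1, chr14:18239107-18239356 on the minus strand for Nr1d2, chr15:81811164-81811413 on the plus strand for the second start of Tef and chr13:52981040-52981289 on the minus strand for Nfil3.
Nr1d1: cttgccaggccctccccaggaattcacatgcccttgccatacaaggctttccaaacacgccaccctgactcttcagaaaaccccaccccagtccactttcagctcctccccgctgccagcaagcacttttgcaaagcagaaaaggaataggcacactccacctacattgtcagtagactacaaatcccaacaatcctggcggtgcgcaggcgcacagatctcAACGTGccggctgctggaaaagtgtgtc
Nr1d2: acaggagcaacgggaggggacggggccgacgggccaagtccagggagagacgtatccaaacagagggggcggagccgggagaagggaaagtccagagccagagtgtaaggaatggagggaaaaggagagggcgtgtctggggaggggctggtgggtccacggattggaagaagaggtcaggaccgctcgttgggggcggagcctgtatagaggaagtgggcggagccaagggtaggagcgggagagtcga
Tef: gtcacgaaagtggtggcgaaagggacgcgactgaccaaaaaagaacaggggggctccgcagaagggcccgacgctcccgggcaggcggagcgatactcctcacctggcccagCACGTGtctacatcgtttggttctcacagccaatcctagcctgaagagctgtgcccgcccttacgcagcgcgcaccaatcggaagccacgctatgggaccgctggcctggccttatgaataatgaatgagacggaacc
Nfil3: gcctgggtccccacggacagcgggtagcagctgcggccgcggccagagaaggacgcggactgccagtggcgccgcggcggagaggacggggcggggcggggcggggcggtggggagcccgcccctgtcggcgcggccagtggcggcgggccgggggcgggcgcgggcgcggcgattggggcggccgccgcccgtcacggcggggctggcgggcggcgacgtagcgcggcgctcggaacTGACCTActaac

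Both strands were searched for 5 elements. The E-box was spelled CACGTG, its variant the E-prime box CACGTT, the core of the ROR element TAGGTCA or TGGGTCA, the D-box TTATGTAA or TTATGCAA, and the Foxo element GTAAACA. None of these spellings contains another. Nr1d1 held 1 E-prime box, read on the opposite strand, whose first base lay 28 bases before the start. Both starts of Tef held an E-box, at 127 and 138 bases, and Bhlhe41 held one at 153 bases. The starts are those of RefSeq, and the window of Usp2 and both windows of Tef lie wholly inside the GENCODE gene. Those of Dbp, Nfil3, Nr1d2 and Bhlhe41 run in part into the GENCODE gene. Nfil3, a known target of the REV-ERB and ROR receptors, held a ROR element core read on the opposite strand at 12 bases. Of 32851 promoter windows of the same length, 6.02% held an E-box, 3.85% an E-prime box, 5.38% a ROR element core, 1.5% a D-box and 3.17% a Foxo element. The windows of Nr1d2, Rora, Dbp, Hlf and Usp2 held none of these letters, and no window of the 9 genes held a D-box or Foxo element. GC content ranged from 54.8% in Nr1d1 to 81.6% in Nfil3, against a median of 52.4% over all windows. A match is a run of letters and not a measured binding site.

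Total counts were 73551737 to 95908652 per library, so that 3 counts stood for 0.0313 to 0.0408 CPM (counts scaled to a common library size, without TMM factors for this floor and with them elsewhere). That floor covers counting error only. Across all 14657 genes, 50 passed the threshold of an adjusted p below 0.05 (0.341% of those tested), 41 higher (0.28%) and 9 lower (0.0614%) in mutant liver. Foxo1 itself was at 44.0 and 54.8 CPM in the wild type libraries and 33.6 and 53.4 CPM in the mutant libraries, and the groups overlapped. An antisense gene, Gm20402, shares 674 exon bases (7.78%) with Foxo1. The 10 hepatocyte markers, the lowest of which was Asgr1 at 262 to 299 CPM, summed to 105730 and 117070 CPM in wild type and to 103320 and 100490 CPM in mutant liver. Most of that sum was Alb, at 71500 and 80700 CPM in the wild type libraries and 67930 and 64780 CPM in the mutant libraries. Of the 10, 5 had log2 fold changes above 0 and 0 passed the threshold. Of 10 macrophage markers, 6 rose past the threshold and all 10 had log2 fold changes above 0. Their sum went from 296 and 312 to 457 and 515 CPM, and that of 5 blood and erythroid markers from 238 and 266 to 295 and 334 CPM. All of these 5 had log2 fold changes above 0, and 1 passed the threshold. The most abundant, Alas2, overlapped between the groups, at 142.6 and 125.5 CPM in the wild type libraries and 131.9 and 149.9 CPM in the mutant libraries. None of the 10 or of the 5 was at 0. Sums of the sinusoidal endothelial markers stayed between 129 and 134 CPM, those of the stellate markers between 94.6 and 113 CPM and those of the cholangiocyte markers between 31.1 and 35.6 CPM. Log2 fold changes lay above 0 for 2 of 6 endothelial, 1 of 6 stellate and 0 of 5 cholangiocyte markers, and 0 of these markers passed the threshold. The 5 lymphocyte markers summed to 7.40 and 7.501 CPM in the wild type libraries and 12.9 and 11.6 CPM in the mutant libraries, mostly from Ptprc. That gene was the 1 of the 5 past the threshold (log2 fold change 0.77, edgeR adjusted p = 0.0405). The 4 neutrophil markers summed to 0.446 and 0.609 CPM in the wild type libraries and 1.43 and 0.849 CPM in the mutant libraries, and 0 of the 2 tested passed. Defining lymphocyte and neutrophil genes such as Cd3e and Ly6g were near 0, at no more than 0.251 and 0.0105 CPM. Whether the cell mixture has a part in the values of the clock genes was not tested, and in whole tissue fewer cells of a type and less RNA per cell cannot be told apart.

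Among the 9 genes, Nr1d1 fell in mutant liver while its paralog Nr1d2 had group means of 51.3 and 50.9 CPM. Usp2 had higher values in both mutant libraries without passing the threshold, and Hlf and Rora were higher by a small margin in both. Tef and Nfil3 overlapped between the groups, and Dbp and Bhlhe41 were scarce. Thus 1 of 9 passed the threshold, against 0.341% of all genes tested, and 3 of 9 (Nr1d1, Usp2 and Hlf) had an unadjusted p below 0.05, against 6.19%. With 9 members, 1 gene is a large share of the list. The groups did not overlap for 5 members (Nr1d1, Rora, Hlf, Usp2 and Bhlhe41), 4 of them with the mutant libraries higher. Of all genes tested, 34.1% had groups that did not overlap. The median log2 fold change of the members (mutant over wild type throughout) was 0.14, against −0.0013 over all genes tested, and the median of its size was 0.17, against 0.12.

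**Figure D1:**
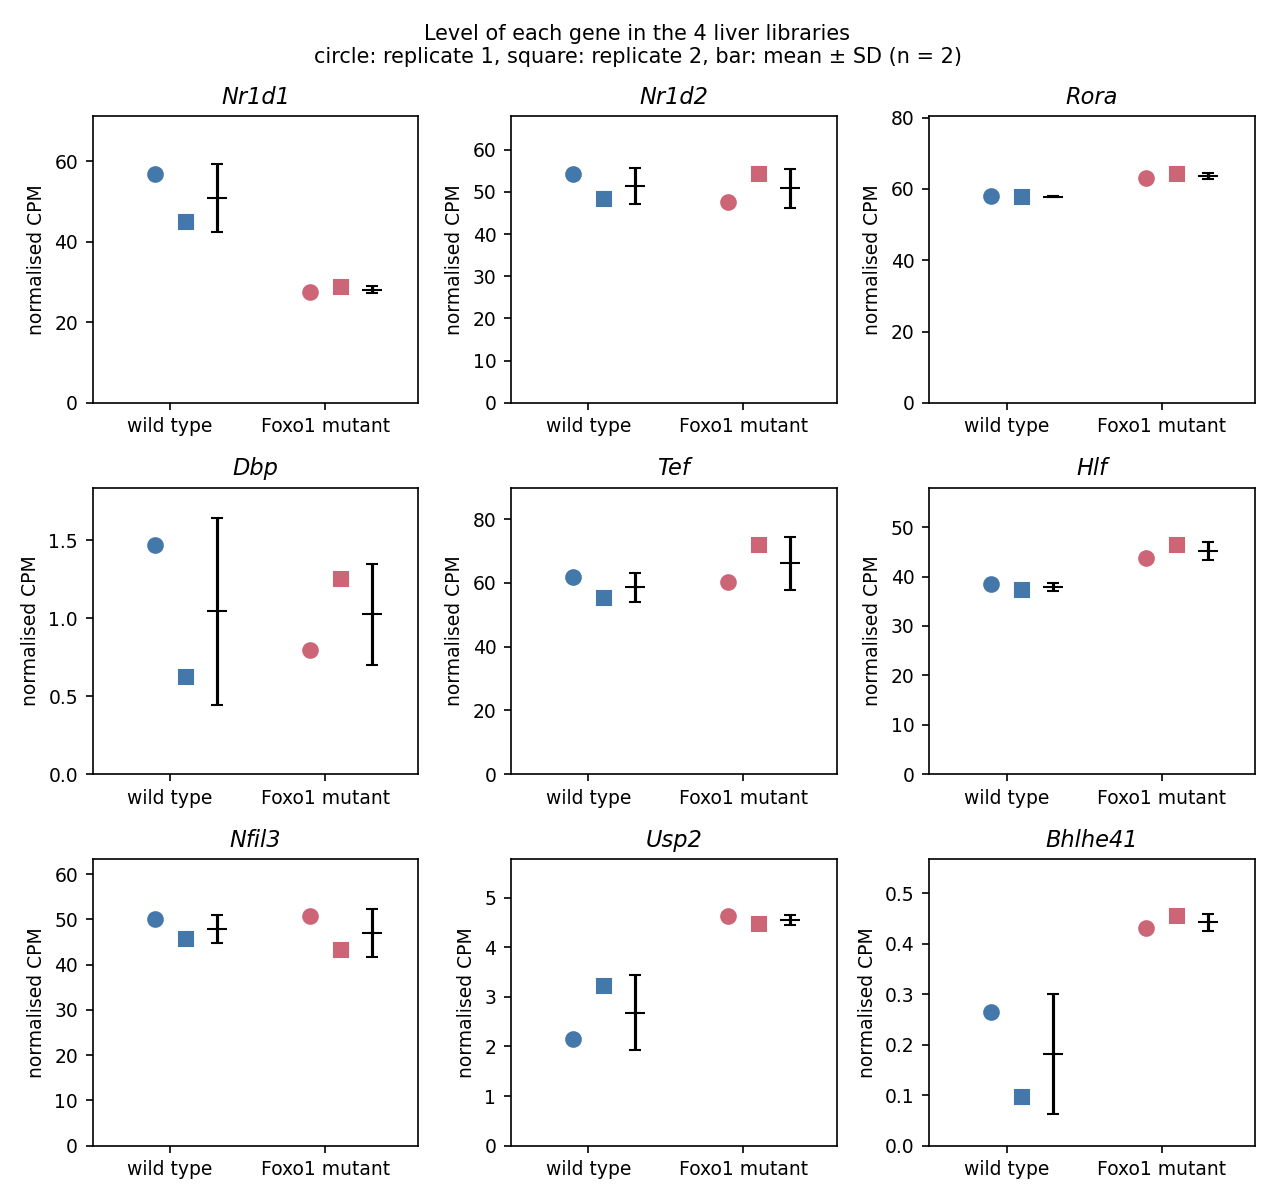
Normalised CPM (vertical axes, from 0) of the 9 genes in the 2 wild type and 2 Foxo1 mutant libraries, with circles for replicate 1, squares for replicate 2 and bars for the mean ± SD of a group (n = 2). Nr1d1 sits at 27.6 and 28.7 CPM in the mutant libraries, below both wild type libraries at 56.9 and 44.9 CPM, whereas Nr1d2 lies between 47.6 and 54.3 CPM in all 4.

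Levels of different genes can be set side by side only per length of transcript. On the scale of CPM per kilobase of merged exons (RPKM), which understates genes with many alternative exons such as Rora, Nfil3 was the most abundant of the 9, at 23.7 in wild type and 23.2 in mutant liver. Nr1d1 came next in wild type liver at 16.5, but at 9.15 in mutant liver it was level with Nr1d2, which stood at 9.48 and 9.40, and its range over the 4 libraries (8.95 to 18.5) took in that of Nr1d2 in part. Tef followed at 7.44 and 8.40, Hlf at 5.68 and 6.75 and Rora at 4.42 and 4.87. Over the 4 libraries the RPKM of Nr1d2 (8.80 to 10.04) and Tef (7.03 to 9.13) overlapped, and so did that of Usp2 (0.445 to 0.959) and Dbp (0.208 to 0.492). Tef, Hlf and Rora did not overlap each other. Bhlhe41 was the lowest, between 0.0144 and 0.0676. Dbp thus did not exceed 0.492 RPKM in any of the 4 libraries, while its relatives Tef and Hlf were at no less than 7.03 and 5.59.

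The stabilising loop is represented by the REV-ERB repressors and by Rora. Nr1d1 (REV-ERB alpha; ENSMUSG00000020889, mm10 chromosome 11, 98767932 to 98775333, minus strand) held 4720 and 3243 reads in wild type replicates 1 and 2 and 2623 and 2403 in mutant replicates 1 and 2, or 56.9 and 44.9 against 27.6 and 28.7 CPM. Both mutant libraries lay below both wild type libraries and close to each other, and the 2 wild type libraries were further apart. The group means were 50.9 ± 8.51 and 28.1 ± 0.830 CPM (SD, n = 2). The fall was 1.81-fold, with a log2 fold change of −0.86 (SE 0.11, 95% confidence interval −1.11 to −0.60, edgeR adjusted p = 0.0109), the 12th smallest p among the 14657 genes. On the log2 scale the gap between the group means, −0.85, compares with gaps between replicates of 0.34 in wild type and 0.06 in mutant liver. The call rested on the number of libraries and on the test. Without wild type replicate 1, the higher of the 2, the log2 fold change was −0.67 (edgeR adjusted p = 0.141), and without mutant replicate 1 or 2 it was −0.83 and −0.89 (0.183 and 0.213). Without wild type replicate 2 it was −1.02 and was still called (edgeR adjusted p = 0.0225). It was also not called by limma-voom (adjusted p = 0.064) or by edgeR without robust estimation (0.0586), while DESeq2 did call it (7.66e-07).

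Exons of Nr1d1 share 263 bases, 8.55% of its exon length, with Thra, the thyroid hormone receptor gene on the opposite strand, and the kit used marks no strand. Thra was at 14.7 and 16.04 CPM in the wild type libraries and 14.4 and 13.3 CPM in the mutant libraries, a difference of −0.15 on the log2 scale (SE 0.11, edgeR adjusted p = 0.987). Both mutant libraries were slightly lower for Thra, and the share of reads that lay in the overlap was not tested.

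Nr1d2 (REV-ERB beta; ENSMUSG00000021775, chromosome 14, 18204054 to 18239127, minus strand), which can stand in for Nr1d1 in repression of Arntl, was at 54.3 and 48.3 CPM in the wild type libraries and 47.6 and 54.1 CPM in the mutant libraries. The libraries of the 2 groups interleaved, with means of 51.3 ± 4.27 and 50.9 ± 4.59 CPM. The log2 fold change, −0.01, had an SE of 0.10 and a 95% confidence interval of −0.23 to 0.20 (edgeR adjusted p = 1.0). That interval does not meet the interval of Nr1d1, whose upper end was −0.60. Within a library, where scaling cancels, the log2 ratio of Nr1d1 to Nr1d2 was 0.07 and −0.11 in wild type and −0.79 and −0.91 in mutant liver. The ratio, which is not corrected for length and so does not order the levels of the paralogs, was lower in both mutant libraries than in either wild type library. In an exact permutation test (two-sided) the difference of −0.83 had p = 0.333, the smallest that 2 libraries against 2 can give, and p = 0.555 after Benjamini-Hochberg adjustment over the 5 ratios examined.

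Rora (ENSMUSG00000032238, chromosome 9, 68653786 to 69388246, plus strand), the activator that shares its DNA element with the REV-ERB receptors, was at 57.9 and 57.7 CPM in the wild type libraries and 63.1 and 64.3 CPM in the mutant libraries. The replicates were tight and the groups did not overlap, but the difference was small. Its log2 fold change of 0.14 (SE 0.09, 95% confidence interval −0.05 to 0.33) did not pass the threshold (edgeR adjusted p = 0.957). Leaving out any 1 library kept it between 0.12 and 0.15. The log2 ratio of Nr1d1 to Rora was −0.02 and −0.36 in wild type and −1.20 and −1.16 in mutant liver, a difference of −0.98 between the group means (exact permutation p = 0.333, adjusted p = 0.555). An antisense gene, Gm15511, shares 82 exon bases with Rora (0.627%) and held at most 0.0241 CPM.

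**Figure D2:**
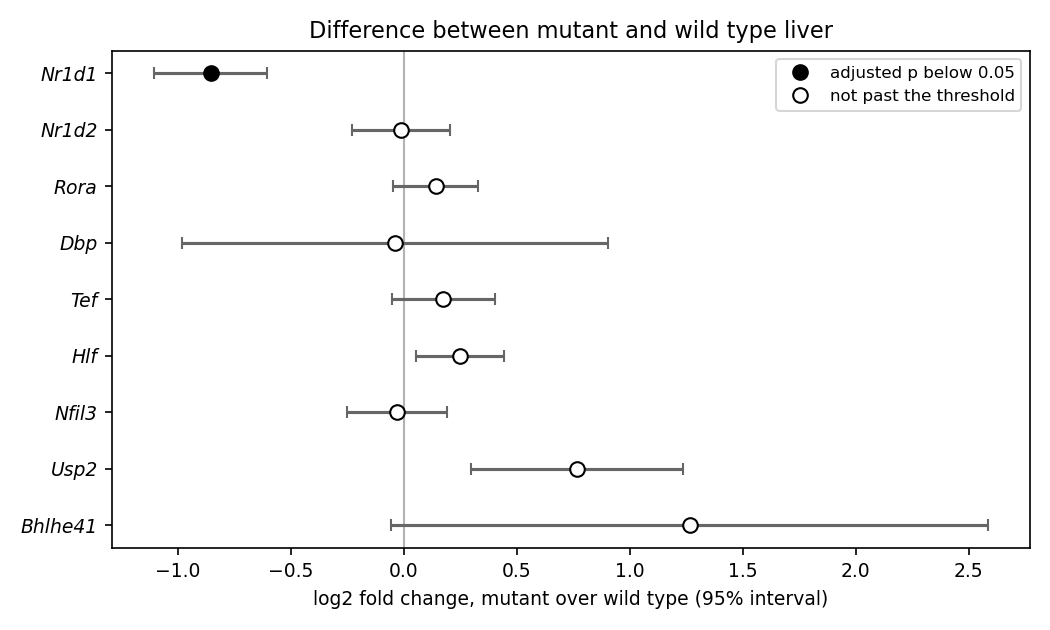
Log2 fold change of mutant over wild type liver (horizontal axis) with its 95% confidence interval for each of the 9 genes (edgeR, 2 libraries a group). The filled point, Nr1d1 at −0.86, is the member past the adjusted threshold, the intervals of Hlf and Usp2 also lie on 1 side of 0, and those of Dbp and Bhlhe41 are the widest.

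**Figure D3:**
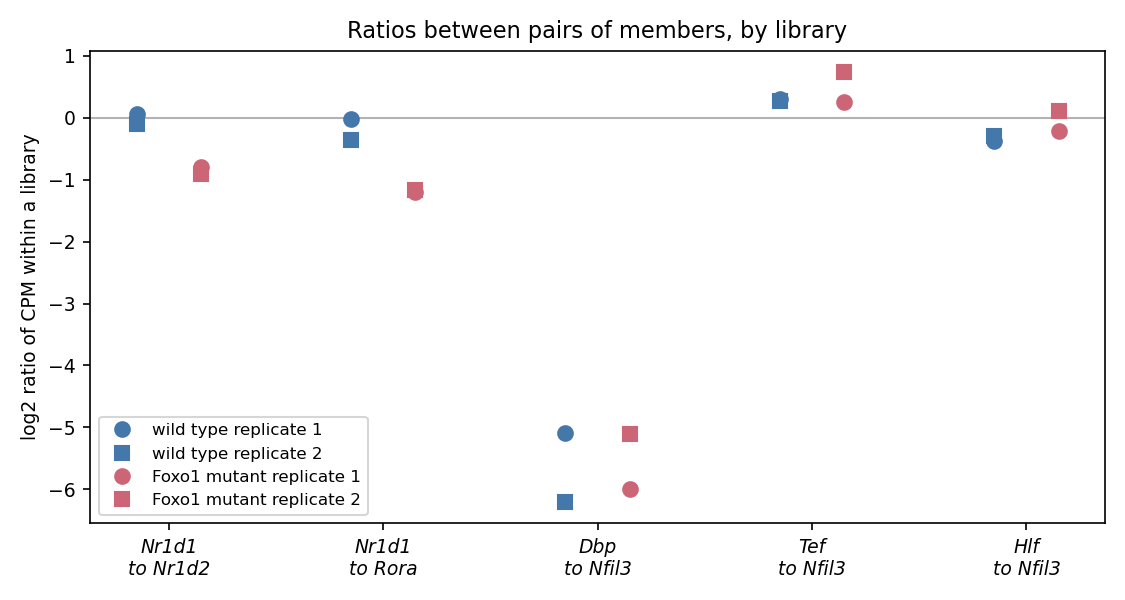
Log2 ratio of CPM within each library (vertical axis) for 5 pairs of genes, in blue for wild type and red for mutant libraries, with circles for replicate 1 and squares for replicate 2. The ratios of Nr1d1 to Nr1d2 and to Rora are lower in both mutant libraries, and those of Dbp and Tef to Nfil3 overlap between the groups.

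None of the PAR bZIP factors passed the threshold. Hlf (hepatic leukemia factor; ENSMUSG00000003949, chromosome 11, 90336536 to 90390895, minus strand) was at 38.5 and 37.4 CPM in the wild type libraries and 43.8 and 46.4 CPM in the mutant libraries. Both mutant libraries were higher, and the gap of 0.25 between the group means on the log2 scale was larger than the gaps between replicates, 0.04 and 0.08. The log2 fold change was 0.25 (SE 0.09, 95% confidence interval 0.05 to 0.44), with an unadjusted p of 0.0168 and an edgeR adjusted p of 0.584, so it did not pass over all genes. Tef (thyrotroph embryonic factor; ENSMUSG00000022389, chromosome 15, 81802421 to 81826863, plus strand) was at 61.8 and 55.3 CPM in the wild type libraries and 60.3 and 71.8 CPM in the mutant libraries. Mutant replicate 1 lay between the wild type libraries, and replicate 2 was the highest of the 4. Its log2 fold change was 0.17 (SE 0.11, edgeR adjusted p = 0.951) and was 0.04 without mutant replicate 2. Gm17597, an opposite-strand gene not analysed here, shares 193 exon bases (2.45%) with it.

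Dbp (D-site binding protein; ENSMUSG00000059824, chromosome 7, 45705088 to 45710203, plus strand) held 122 and 45 reads in wild type and 76 and 105 reads in mutant liver, or 1.47 and 0.623 against 0.798 and 1.255 CPM. The spread within wild type, 1.24 on the log2 scale, was far larger than the difference between the groups. The log2 fold change, −0.04, had an SE of 0.42 and a 95% confidence interval of −0.98 to 0.90 (edgeR adjusted p = 1.0), so changes of up to about that size were not detectable with these libraries. Its sign was not fixed either, at 0.72 without wild type replicate 1 and −0.52 without wild type replicate 2. Dbp shares 539 exon bases (18.0%) with Sphk2, a sphingosine kinase gene on the opposite strand that was at 48.2 and 51.2 CPM in the wild type libraries and 48.5 and 44.8 CPM in the mutant libraries. How many reads lay in that overlap was not tested.

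Nfil3 (E4BP4; ENSMUSG00000056749, chromosome 13, 52967209 to 52981073, minus strand), which represses through the D-box, was at 50.1 and 45.8 CPM in the wild type libraries and 50.7 and 43.2 CPM in the mutant libraries. The highest values came from replicate 1 of each group, and the groups overlapped. The log2 fold change was −0.03 (SE 0.10, 95% confidence interval −0.25 to 0.19, edgeR adjusted p = 1.0). Within a library the log2 ratio of Hlf to Nfil3 was −0.38 and −0.29 in wild type and −0.21 and 0.10 in mutant liver, and did not overlap (exact permutation p = 0.333, adjusted p = 0.555). That of Tef to Nfil3 was 0.30 and 0.27 in wild type and 0.25 and 0.73 in mutant liver (exact permutation p = 1.0). The ratio of Dbp to Nfil3 lay between −6.20 and −5.09 in all 4 libraries and overlapped (exact permutation p = 1.0).

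Usp2, a deubiquitinating enzyme transcribed under direct control of the clock (ENSMUSG00000032010, chromosome 9, 44067021 to 44095627, plus strand), held 178 and 232 reads in wild type and 440 and 374 reads in mutant liver. In CPM it was at 2.15 and 3.21 in wild type and at 4.62 and 4.47 in mutant liver. Both mutant libraries were higher and close together, while the wild type libraries were 0.58 apart on the log2 scale, against a gap of 0.79 between the group means. The log2 fold change was 0.77 (SE 0.22, 95% confidence interval 0.30 to 1.23), with an unadjusted p of 0.00375 and an edgeR adjusted p of 0.298. It passed with no filter on low counts (0.0194), a setting with 258 calls over all genes, and ranged from 0.50 without wild type replicate 1 to 1.08 without wild type replicate 2. The annotated genes Gm39325 and Gm49380 on the opposite strand each share 200 exon bases (4.15%) with it and were not analysed here.

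Bhlhe41 (DEC2; ENSMUSG00000030256, chromosome 6, 145858243 to 145865558, minus strand), which represses E-box genes, held 22 and 7 reads in wild type and 41 and 38 reads in mutant liver, or 0.265 and 0.0969 against 0.431 and 0.454 CPM. Both mutant libraries were higher, at a level where single reads matter. The log2 fold change, 1.26, had an SE of 0.61 and a 95% confidence interval of −0.06 to 2.59 (edgeR adjusted p = 0.849), and went from 0.73 without wild type replicate 2 to 2.17 without wild type replicate 1. Gm43909, a gene on the opposite strand that was not analysed here, shares 1280 exon bases (19.0%) with it.

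**Figure D4:**
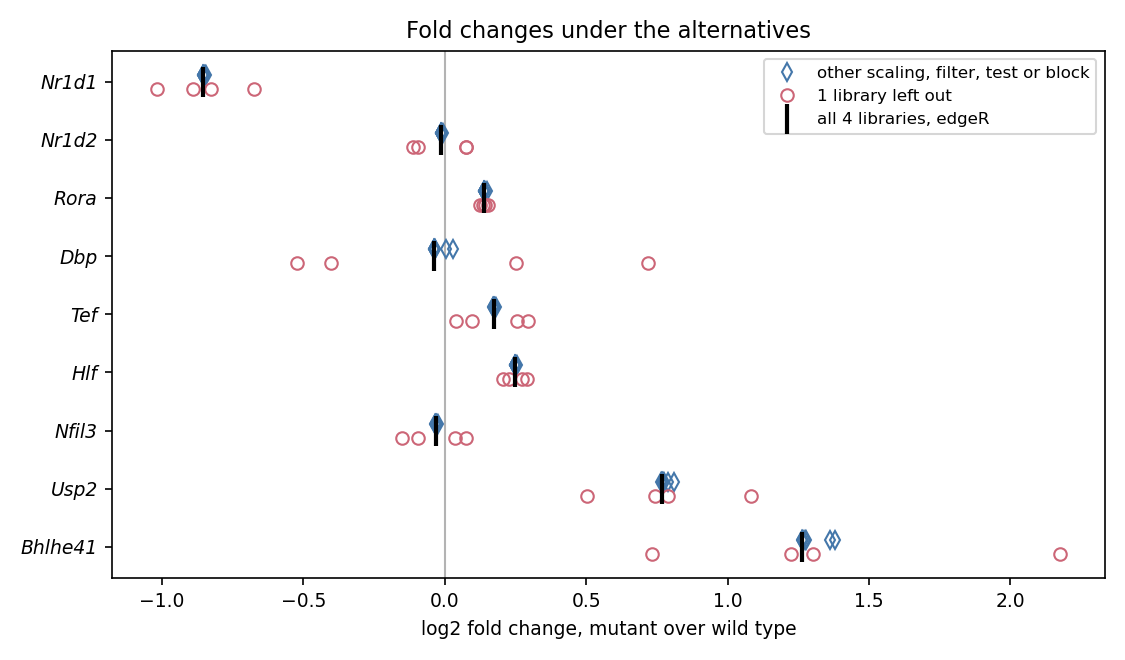
Log2 fold change of mutant over wild type (horizontal axis) of the 9 genes from all 4 libraries (black bar), under other scalings, filters, tests and the replicate block (blue diamonds) and with 1 library left out (red circles). Nr1d1 stays between −1.02 and −0.67, Hlf, Rora, Tef, Usp2 and Bhlhe41 stay above 0, and Dbp spreads from −0.52 to 0.72.

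The remaining genes of the pathway were described by 6 lists of 52 genes in all, some on more than 1 list, of which 48 were tested. Of these, 1 rose and 0 fell past the threshold in edgeR, or 2.08% against 0.341% of all genes tested. That share is 1 gene, on lists drawn up with earlier results of these data known, so the contrast is a description only. DESeq2 and limma-voom also called 1 each. The gene that rose was Alas1, which encodes the first enzyme of the haem pathway and is a known PAR bZIP target, at 130 and 131 CPM in the wild type libraries and 234 and 266 CPM in the mutant libraries (edgeR adjusted p = 0.00228, log2 fold change 0.93, SE 0.10). Alas1 shares 465 exon bases (7.53%) with the opposite-strand gene 4930500F10Rik, which was not analysed here. The haem product of the pathway is the ligand of the REV-ERB receptors. With any 1 library left out, 0 of the 48 passed.

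In the core loop, 0 of 13 genes passed the threshold in edgeR. Log2 fold changes lay above 0 for 10 and below 0 for 3 of them, against 50.3% below 0 over all genes tested. The median of the list was 0.09, against 0.00 over all genes tested. The 2 most abundant were the kinase gene Csnk1d, at 66.0 ± 1.07 CPM for wild type and 62.2 ± 0.148 CPM for the mutant, and Clock, at 57.1 ± 0.593 and 60.6 ± 2.12 CPM. At an unadjusted p below 0.05 in edgeR, which 6.19% of all genes tested met, there were 2 of the 13, singled out after their values were seen. They were the repressor genes Ciart, at 1.16 and 0.734 CPM in the wild type libraries and 2.14 and 1.88 CPM in the mutant libraries, and Per2, at 8.32 and 8.93 against 11.1 and 10.6 CPM. Their log2 fold changes were 1.08 and 0.33 (edgeR adjusted p of 0.273 and 0.639). Arntl, the direct target of REV-ERB repression, is also named for that reason and not by its values. It was at 32.01 and 42.4 CPM in the wild type libraries and 41.3 and 36.0 CPM in the mutant libraries, so the groups overlapped (edgeR adjusted p = 1.0, log2 fold change 0.06, SE 0.14).

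Among relatives and cofactors of the REV-ERB and ROR receptors, 0 of 8 tested genes passed in edgeR, with 6 positive and 2 negative log2 fold changes, a median of 0.03 and 0 at an unadjusted p below 0.05. The corepressor gene Ncor1 was at 114 ± 6.77 CPM for wild type and 113 ± 7.30 CPM for the mutant. Of 13 tested genes with ROR elements or known repression by REV-ERB, 4 of which are also core loop genes, 0 passed in edgeR. The median log2 fold change of this list was 0.09. On it 11 genes lay above and 2 below 0, against 50.3% below 0 over all genes tested, and its direction as a whole was not tested. Both of its most abundant genes overlapped between the groups: the apolipoprotein gene Apoc3 was at 928 ± 31.5 and 940 ± 21.2 CPM, and the bile acid hydroxylase gene Cyp8b1 at 502 ± 93.0 and 536 ± 147 CPM. The vasopressin receptor gene Avpr1a, named after its values were seen, had an unadjusted p below 0.05 (log2 fold change 0.28, edgeR adjusted p = 0.592).

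Of 11 tested genes downstream of the PAR bZIP factors, Alas1 was the 1 that passed, 6 lay above and 5 below 0 in log2 fold change, and the median was 0.01 (0.0084). Cyp2a5, a drug-metabolising cytochrome with the near-identical copy Cyp2a4, was lower in both mutant libraries, at 451 and 500 CPM in the wild type libraries and 379 and 393 CPM in the mutant libraries, and did not pass (edgeR adjusted p = 0.543, log2 fold change −0.30, SE 0.10). Genes of this list thus stood on both sides of 0. The 4 other E-box outputs had 0 calls in edgeR and a median of 0.17, with the glycogen synthase gene Gys2 at 107 ± 1.62 and 105 ± 2.24 CPM and Nampt, an enzyme of NAD synthesis, at 43.0 ± 1.36 and 49.0 ± 10.1 CPM. Of these 4, Ciart had an unadjusted p below 0.05. Genes that answer to temperature and glucocorticoids, cues that can set the liver clock, had 0 calls among 8 in edgeR and 0 at an unadjusted p below 0.05. Their median was 0.28, with 7 positive and 1 negative, against 50.3% negative over all genes tested. The glucocorticoid-induced gene Tsc22d3 was at 155 ± 10.96 and 155 ± 26.4 CPM and the chaperone gene Hsph1 at 33.7 ± 8.15 and 44.3 ± 13.7 CPM, both with groups that overlapped.

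**Figure D5:**
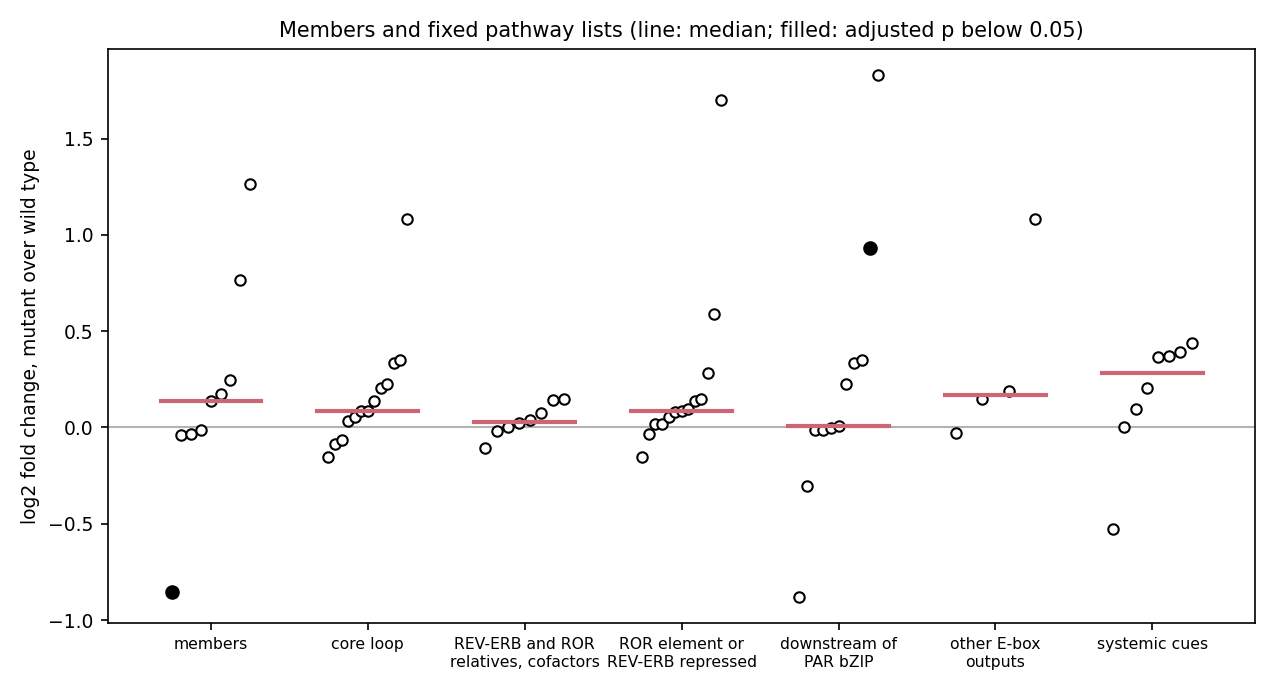
Log2 fold changes of mutant over wild type (vertical axis) of the 9 members and of the tested genes of 6 pathway lists, 1 point a gene, with red lines for list medians and filled points for genes past the threshold. Nr1d1 at −0.86 and Alas1 at 0.93 are the filled points, and the list medians lie between 0.01 and 0.28.

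The genes whose pattern over the 4 libraries was most like that of Nr1d1 were found among 8947 genes that averaged 2 or more on the log2 CPM scale and had an established symbol. The measure was the root mean square difference of log2 CPM after each gene was centred on its own mean. The nearest was Hsd17b6, a hydroxysteroid dehydrogenase gene, with a difference of 0.09, at 83.6 and 76.4 CPM in the wild type libraries and 39.9 and 45.4 CPM in the mutant libraries (log2 fold change −0.91, edgeR adjusted p = 0.00228). Bcl6, a transcriptional repressor gene, followed with a difference of 0.13, at 34.0 and 21.0 CPM in the wild type libraries and 14.1 and 14.4 CPM in the mutant libraries (−0.95, edgeR adjusted p = 0.584), and then Fam198a with 0.14. The 3 nearest to Usp2 were Fam222a, Fam129a and the myeloid receptor gene Clec12a, with differences of 0.04, 0.04 and 0.09. Their log2 fold changes were 0.78, 0.69 and 0.61, and none of the 3 passed the threshold (adjusted p in edgeR of 0.156, 0.385 and 0.39). With 4 libraries a close pattern is a description of these samples and no measure of shared control.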

How the data were processed

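Liver RNA of 2 wild type and 2 Foxo1 mutant libraries was analysed from raw read counts per Ensembl gene, deposited by the authors as 1 file a library, neither normalised nor pooled. Per the labels, polyA RNA went into TruSeq libraries, which do not mark strand, read in pairs of 150 bp. TopHat2 2.1.1, HTSeq 0.6.0 and mm10 are named in the submitters' processing notes, whereas the counting mode, strand setting and annotation release were not stated there. Symbols were found for 35449 of 37315 identifiers (95.0%). Positions, exon lengths and exon overlaps come from GENCODE M21, and promoters from RefSeq (GRCm38.p6).

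Genes were kept by filterByExpr (minimum count 10), scaled by TMM (factors 0.983 to 1.02) and tested across all genes with edgeR 4.0.16 in R 4.3.3 (glmQLFit and glmQLFTest, robust, group as the only term), with Benjamini-Hochberg adjustment and a threshold of 0.05. The procedure was tested on simulated data. SE is the size of the log2 fold change over the root of F. Ratios used exact permutation tests (scipy 1.17.1). The alternatives used upper-quartile or RLE scaling, no filter, 1 CPM in 2 libraries, DESeq2 1.42.0, limma-voom (limma 3.58.1), non-robust estimation, a block for the replicate number, and each library left out with the tested genes kept. The lone library of a group is then assumed to vary like the other pair.

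The members, lists, ratios and alternatives were chosen with earlier results of these data known. The genes named are the 9 members, Foxo1, genes sharing exons with members, each list's genes past the threshold, or else its most abundant up to 2, and the 3 genes nearest in pattern to Nr1d1 and to Usp2. Others are named as chosen later. Some genes of the lists are not reported here by name.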

Additional observations from a re-analysis of the deposited data

How the results depend on the processing

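Over 12 alternatives (11 for Bhlhe41, which a filter of 1 CPM in 2 libraries removed), Nr1d1, Rora, Tef, Hlf, Usp2 and Bhlhe41 kept their direction. Nr1d1 lost its call with limma-voom, without robust estimation and without any library but wild type replicate 2. Dbp changed sign with limma-voom (0.0054) and with the replicate block (0.029), and with 1 library left out it ran from −0.52 to 0.72, Nr1d2 from −0.11 to 0.077 and Nfil3 from −0.15 to 0.076. The cause was not tested. Genes past the threshold over all genes numbered 50, and 258 with no filter, 24 with a filter of 1 CPM in 2 libraries, 109 with DESeq2, 7 with limma-voom, 8 without robust estimation and 3 to 17 with 1 library left out. Members past the threshold numbered 1, and 2 with no filter (Nr1d1 and Usp2), 0 with limma-voom and without robust estimation, and 0 to 1 with 1 library left out. Pathway genes past the threshold numbered 1, and 2 with no filter and 0 in each fit with 1 library left out (lowest and highest 0). RLE and upper-quartile scaling moved the median of all genes by 0.00068 and −4.7e-06 on the log2 scale.

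With the replicate number as a block, 111 genes, 1 member and 2 pathway genes passed. The numbers are not stated to mark a shared litter, batch or day. The deviations of replicates 1 and 2 from their group means had a correlation of 0.0039 between the groups across genes. A value over all genes cannot decide whether the numbers mark a pairing that touches only some genes. Depth limits Bhlhe41 (7 to 41 reads) and Dbp (45 to 122 reads) most.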
